A study of Mus musculus with 12 samples.

Results

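Lysosomal proteolysis was followed through 10 genes, 9 proteases and 1 protease inhibitor: Ctsa, Ctsb, Ctsc, Ctsd, Ctsh, Ctsk, Ctss, Ctsz, Lgmn and Cst3. They were taken by gene name alone, as every probe that the array's design assigned to these symbols, and are 10 of the 34844 gene names on the array. The left ventricular wall with the apex, and without the septum, was taken from mice aged 6 months, and RNA of each mouse was hybridized to its own single-colour Agilent array, 4 arrays per group. Both mutant groups carried floxed alleles of Nkx2-5, the gene of a cardiac homeodomain factor, and a tamoxifen-inducible Cre recombinase driven from Cx40 (Gja5), a gene of ventricular trabeculae. Tamoxifen was given to the pregnant mothers at E10.5 and E11.5 for TrbE10 mice and at E13.5 and E14.5 for TrbE14 mice. The labels describe the 4 control mice as not injected, whereas the methods describe littermates with the floxed Nkx2-5 alleles and without the Cre allele. By the methods, mutants and controls thus shared the floxed alleles and differed in the Cre allele at Cx40 as well as in the deletion. Because Cre was active in Cx40-positive cells, the tissue also held muscle that kept Nkx2-5, together with cells that never expressed Cx40.

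Cathepsins are the proteases of the lysosome, the acidic compartment in which the cell degrades proteins taken up from outside or delivered by autophagy. Most are cysteine proteases made as inactive precursors and activated by cleavage at low pH; cathepsin D is an aspartic protease and cathepsin A a serine carboxypeptidase. Cystatins are tight-binding inhibitors of the cysteine cathepsins, and cystatin C, the product of Cst3, is the main secreted one. In the heart these enzymes occur in cardiac muscle, which depends on autophagy, as well as in fibroblasts and in resident macrophages, where cathepsin S is abundant.

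The promoter windows of 3 genes are shown. Ctss and Ctsk are neighbours on the same strand of chromosome 3, of which Ctss was called and Ctsk was not (a test of the difference between them was not run). The window of Ctsd holds the letters of an E-box of the TFEB family, factors known to regulate lysosomal genes together. Each run is 270 bases, 250 before the annotated start of transcription and 20 after it, 5′ to 3′, from RefSeq on GRCm38.p6.
Ctss (chr3:95526536-95526805, + strand): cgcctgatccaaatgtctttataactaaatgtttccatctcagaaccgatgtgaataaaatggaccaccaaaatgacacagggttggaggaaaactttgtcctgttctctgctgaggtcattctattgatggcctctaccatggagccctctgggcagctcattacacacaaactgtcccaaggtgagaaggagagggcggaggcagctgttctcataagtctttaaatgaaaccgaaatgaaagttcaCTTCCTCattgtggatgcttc
Ctsk (chr3:95498960-95499229, + strand): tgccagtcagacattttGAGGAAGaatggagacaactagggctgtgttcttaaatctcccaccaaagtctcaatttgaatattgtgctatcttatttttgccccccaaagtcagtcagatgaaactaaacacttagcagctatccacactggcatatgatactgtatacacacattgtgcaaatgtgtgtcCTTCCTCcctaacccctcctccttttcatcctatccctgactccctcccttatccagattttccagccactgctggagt
Ctsd (chr7:142387808-142388077, - strand): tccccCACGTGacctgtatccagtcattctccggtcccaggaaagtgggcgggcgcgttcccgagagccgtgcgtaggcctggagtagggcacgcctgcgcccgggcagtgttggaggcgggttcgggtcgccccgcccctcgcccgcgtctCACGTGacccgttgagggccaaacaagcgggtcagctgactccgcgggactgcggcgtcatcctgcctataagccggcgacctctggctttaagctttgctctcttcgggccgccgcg
Capitals mark matches to either of 2 motifs, searched on both strands. GAGGAAG, or CTTCCTC on the other strand, is a core bound by PU.1, the myeloid factor encoded by Spi1, and CACGTG, the same on both strands, is the E-box of the TFEB family. Ctss held 1 PU.1 core, starting at base -1 and running across the start site, and Ctsk held 2, starting at -233 and -59. Ctsd held 2 E-boxes, starting at -245 and -98. Windows were found for 8 of the 10 genes, and those of Ctsb and Ctsh were not. Among all 32851 windows of the table, searched with 50 bases after the start site, 13.6% held the PU.1 core and 7.15% the E-box. The same search found the PU.1 core in Ctsc and the E-box in the second of 2 windows of Ctsa and of Lgmn, and neither motif in Cst3 or Ctsz. These matches describe letters in the windows and are not binding sites.

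Labels and arrays were checked first. The log2 signal of Nkx2-5 lay between 11.89 and 12.23 on control arrays, between 11.12 and 11.63 on TrbE14 arrays and between 11.21 and 11.67 on TrbE10 arrays, so that both mutants were below every control. Its log2 change was -0.66 in TrbE10 (adjusted p = 0.0459) and -0.59 in TrbE14 (adjusted p = 0.106) by limma, and of 12 fits without an array 2 kept the TrbE10 call, those without TrbE14 replicate 1 or TrbE10 replicate 2 (adjusted p otherwise up to 0.132). Whether its probe lies in the deleted part of the gene was not determined. The control and TrbE14 arrays shared 1 slide and the 4 TrbE10 arrays were on another. In any comparison with TrbE10 the slide and the genotype therefore cannot be told apart, whereas TrbE14 against control lies within a slide. Between 22888 and 26155 probes per array were well above background and no spot was saturated. All 9 cardiomyocyte markers of the list were measured. Y-linked transcripts were high in 1 control, 3 TrbE14 and 2 TrbE10 arrays.

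All 10 genes were well above background on all 12 arrays. A gene is called here when the adjusted p of its brightest probe was under 0.05 in limma, with Benjamini-Hochberg adjustment over all 24593 probes kept. In TrbE10 against control, 1 of the 10, Ctss, rose and 0 fell, where 1.28% of 18021 genes were called higher and 0.649% lower. At an unadjusted p under 0.05, 2 were higher (Ctss and Ctsz) and 0 lower, beside 7.8% and 9% of all genes. In TrbE14 against control 0 of the 10 were called in limma, where 0.533% of genes were called higher and 0.128% lower; at an unadjusted p under 0.05, 1 was higher (Ctss) and 1 lower (Ctsh), beside backgrounds of 6.52% and 7.4%. SAM, the method the study's methods name, called 1, Ctss. Between the mutants limma called 0 of the 10 and 0% of all genes, and at an unadjusted p under 0.05 1 was higher in TrbE10 (Ctss) and 0 lower, beside 2.92% and 3.04% of all genes. SAM also called 0 of the 10 between the mutants. The median log2 change of the 10 was 0.10 in TrbE10 and 0.05 in TrbE14, against medians over all genes of -0.02 and -0.03, so that the middle of the group moved little and Ctss stood apart from it. The 4 samples of a group are separate mice by the methods, so p-values measure the spread between animals. Tamoxifen was given to the mothers and the labels do not name litters, so spread between litters could not be assessed.

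**Figure D1:**
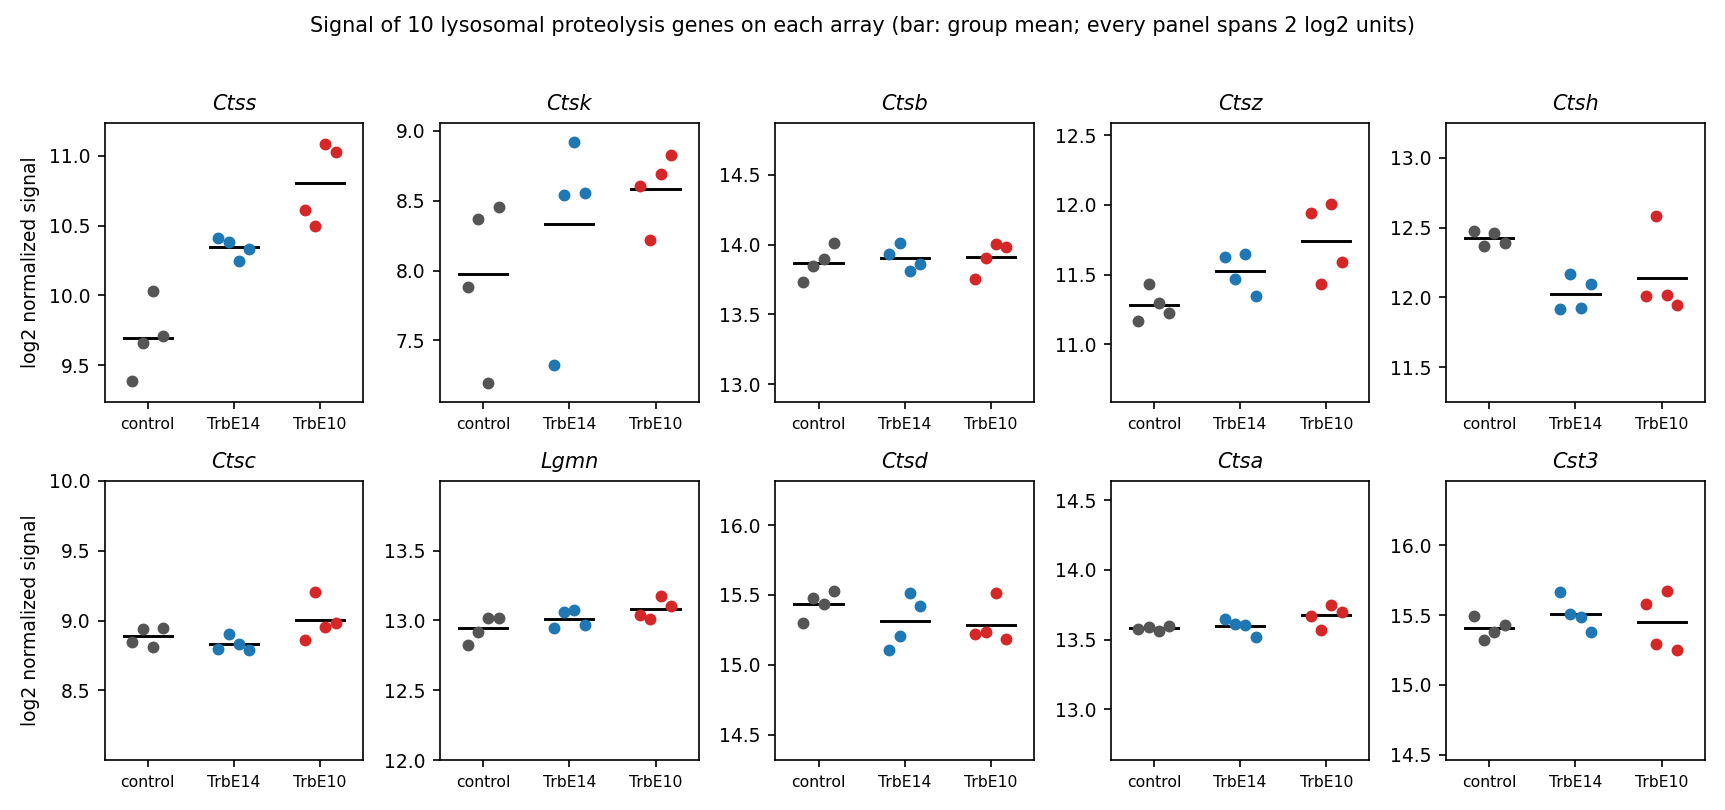
Log2 normalized signal of each of the 10 genes (vertical axis, each panel spanning 2 log2 units) on each array of the control, TrbE14 and TrbE10 groups; points are arrays and bars are group means. The 3 groups of Ctss do not overlap, with means of 9.70, 10.34 and 10.81, while the groups of most other genes do, and Ctsk spreads widely within control and TrbE14.

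Ctss encodes cathepsin S, a cysteine endopeptidase of macrophages and antigen-presenting cells that stays active at neutral pH and trims the invariant chain from MHC class II. Its probe lies at chr3:95360245-95360304 (mm9, + strand) by the array's design and was assigned to NM_021281; no annotation of that build was used to place it in an exon or UTR. The log2 signal was 9.38, 9.66, 10.03 and 9.71 on the 4 control arrays, 10.41, 10.38, 10.25 and 10.33 on the TrbE14 arrays, and 10.61, 10.496, 11.09 and 11.03 on the TrbE10 arrays. The highest control lay below the lowest TrbE14 array, and the highest TrbE14 array below the lowest TrbE10 array. Ctss rose in TrbE10 hearts by a log2 change of 1.11 over control (SE 0.159, adjusted p = 0.00638 by limma), a fold of 2.16. In TrbE14 the difference was 0.65 (SE 0.159, adjusted p = 0.111), a fold of 1.57 with a 95% interval on the log2 scale of 0.298 to 0.997. Between the mutants the difference was 0.46, with an adjusted p of 0.742. Taken as a single value, each of the 3 pairs of groups gave an exact permutation p of 0.0286, two-sided, the smallest that 4 arrays against 4 allow. Arrays of the first group lay wholly above those of the second in 4.94% of all genes for TrbE10 against control, 4.65% for TrbE14 against control and 1.64% between the mutants, and wholly below in 5.63%, 5.43% and 1.73%. Ctss was the only one of the 10 that lay wholly above in any of the 3. The TrbE10 call held with any array left out, with adjusted p between 0.00439 and 0.0244. The comparison of TrbE14 with control within its own slide, fitted on those 8 arrays alone, gave an adjusted p of 0.0998.

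Ctsk encodes cathepsin K, a collagen-degrading enzyme best known from osteoclasts and also made by fibroblasts. Its log2 signal ran from 7.20 to 8.46 on control arrays, from 7.32 to 8.92 on TrbE14 arrays and from 8.22 to 8.83 on TrbE10 arrays, and all groups overlapped. The log2 change was 0.61 in TrbE10 (SE 0.35, adjusted p = 0.419) and 0.36 in TrbE14 (adjusted p = 0.664), with 95% intervals of -0.161 to 1.38 and -0.412 to 1.13. A change as large as that of Ctss thus lies inside the first interval, and it was not detectable at this spread. The low arrays were control replicate 3, at 7.20, and TrbE14 replicate 1, at 7.32, and without the first the TrbE10 change was 0.35 and the TrbE14 change 0.10, and without the second the TrbE14 change was 0.69. Osteoclast markers gave little signal: of 6 listed, 2 passed the filter on background and 0 were called by limma (0 at an unadjusted p under 0.05), and Calcr was above background on 0 arrays.

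Among the other cysteine cathepsins, Ctsz and Ctsh had the larger differences. Ctsz encodes cathepsin Z, a carboxypeptidase frequent in myeloid cells. The log2 signal of Ctsz was 11.17, 11.44, 11.30 and 11.23 on control arrays, 11.63, 11.47, 11.65 and 11.35 on TrbE14 arrays, and 11.94, 11.44, 12.01 and 11.59 on TrbE10 arrays. TrbE10 replicate 2 lay level with the highest control, and the other 3 TrbE10 arrays lay above it. The log2 change was 0.46 in TrbE10 (SE 0.134, adjusted p = 0.119) and 0.24 in TrbE14 (adjusted p = 0.447) by limma. With sex, read from Y-linked signals, as a covariate the TrbE10 change was 0.53 and was called (adjusted p = 0.0307), and it was also called without TrbE10 replicate 2 (0.57, adjusted p = 0.0422).

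Ctsh encodes cathepsin H, mainly an aminopeptidase. Its log2 signal was 12.48, 12.37, 12.46 and 12.39 on control arrays, 11.92, 12.17, 11.93 and 12.09 on TrbE14 arrays, and 12.01, 12.58, 12.02 and 11.94 on TrbE10 arrays. All 4 TrbE14 arrays lay below all 4 controls, as did 3 of the 4 TrbE10 arrays, with TrbE10 replicate 2 above them. The change was -0.40 in TrbE14 (SE 0.133, adjusted p = 0.247, exact permutation p = 0.0286) and -0.28 in TrbE10 (adjusted p = 0.316). Without TrbE10 replicate 2 the TrbE10 change was -0.43 and was called, with an adjusted p of 0.0281. Ctsh was the only one of the 10 whose mutant arrays lay wholly below control in either mutant.

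Ctsb, Ctsc and Lgmn differed little between the groups. Ctsb encodes cathepsin B, a ubiquitous endopeptidase and carboxypeptidase, and its signal lay between 13.73 and 14.01 on control arrays, 13.81 and 14.01 on TrbE14 arrays and 13.76 and 14.01 on TrbE10 arrays. The 95% interval of its log2 change was -0.154 to 0.238 in TrbE10 and -0.161 to 0.23 in TrbE14. Ctsc encodes cathepsin C, the dipeptidyl peptidase that activates granule proteases of mast cells and neutrophils, and its changes were 0.11 (adjusted p = 0.541) and -0.06 (adjusted p = 0.787). A second Ctsc probe was above background on 3 arrays and did not pass the filter. Lgmn encodes legumain, an asparaginyl endopeptidase that processes other cathepsins, and its changes were 0.14 (adjusted p = 0.404) and 0.07 (adjusted p = 0.71).

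The 2 enzymes of other catalytic classes overlapped between all groups. Ctsd, whose aspartic protease is needed for lysosomal turnover in most cells, had a log2 signal of 15.30 to 15.53 on control arrays, 15.10 to 15.52 on TrbE14 arrays and 15.19 to 15.51 on TrbE10 arrays. Its change was -0.15 in TrbE10 (adjusted p = 0.549) and -0.12 in TrbE14 (adjusted p = 0.632), and a second, dimmer Ctsd probe gave 0.01 and 0.05. Ctsa, whose product also protects lysosomal sialidase and beta-galactosidase, had the tightest controls of the 10, between 13.57 and 13.60. The change of Ctsa was 0.09 in TrbE10 and 0.01 in TrbE14, with 95% intervals of -0.059 to 0.238 and -0.134 to 0.163. Scaling each array to its 75th percentile in place of quantile normalization turned the sign of Ctsa and Ctsb in both mutants, so no direction is given for either, and it also turned Cst3 in TrbE10 and Lgmn in TrbE14.

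**Figure D2:**
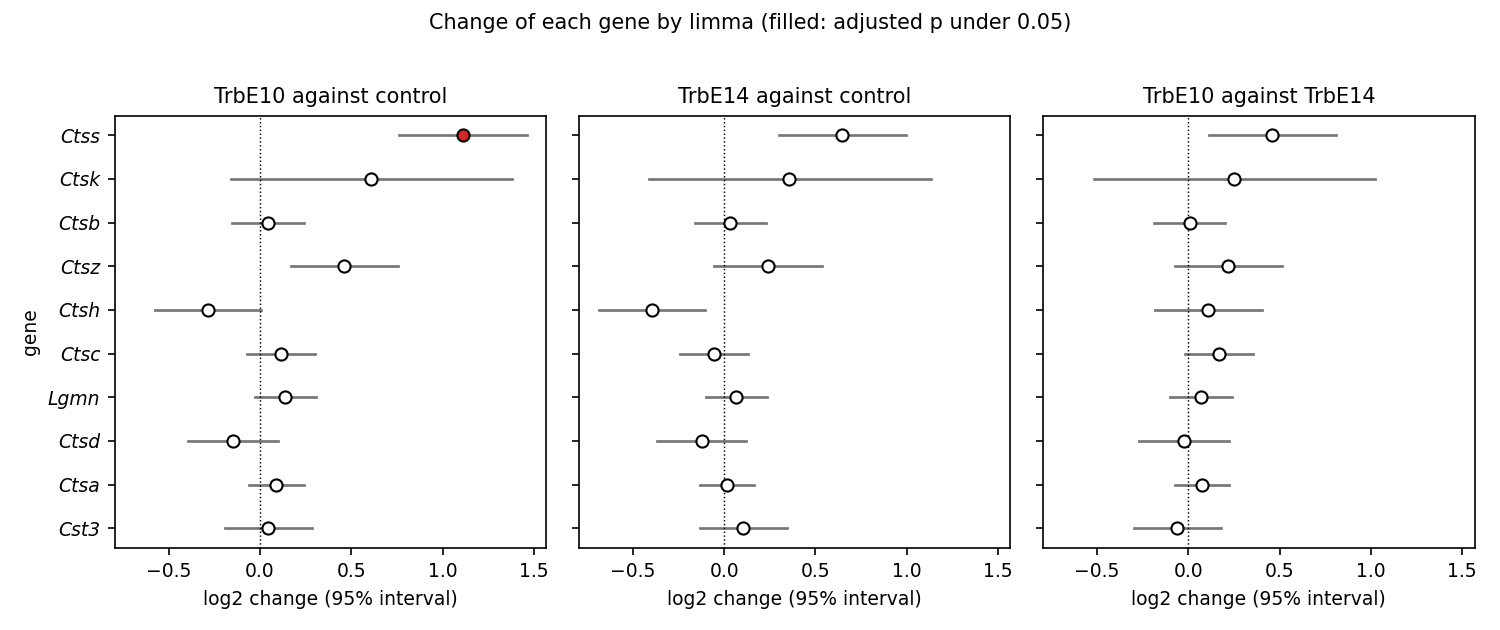
Log2 change of each gene with its 95% interval from limma (horizontal axis) in TrbE10 against control, TrbE14 against control and TrbE10 against TrbE14; filled points had an adjusted p under 0.05. Only Ctss in TrbE10 against control is filled, and the intervals of Ctsk are the widest, reaching from -0.161 to 1.38 in that comparison.

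Cst3, the inhibitor gene, did not follow Ctss. Its log2 signal was 15.50, 15.32, 15.38 and 15.43 on control arrays, 15.66, 15.51, 15.49 and 15.38 on TrbE14 arrays, and 15.58, 15.30, 15.67 and 15.25 on TrbE10 arrays. The change was 0.04 in TrbE10 (adjusted p = 0.877) and 0.10 in TrbE14 (adjusted p = 0.683), with 95% intervals of -0.194 to 0.282 and -0.134 to 0.342. Protease and inhibitor were then set against each other within each array, as the log2 signal of Ctss minus that of Cst3. The size of that gap compares different probes and has no meaning by itself, but its difference between groups is a difference of changes. The gap averaged -5.71 ± 0.314 on control arrays, -5.17 ± 0.0974 on TrbE14 arrays and -4.65 ± 0.322 on TrbE10 arrays (mean ± SD, n = 4 each, exact permutation test below). Ctss was thus higher relative to Cst3 by 1.06 in TrbE10 against control, by 0.54 in TrbE14 against control and by 0.52 in TrbE10 against TrbE14. The exact permutation p was 0.0286 for each, two-sided, and 0.0286 after Benjamini-Hochberg adjustment over the 3 comparisons. Because Cst3 changed little, these differences largely repeat those of Ctss, which alone gave the same exact p. With scaling to the 75th percentile the difference between the mutants was 0.53 with an adjusted p of 0.0571.

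Most markers of macrophages, like Ctss, had higher means in both mutants than in control. All 16 markers of the list passed the filter and 14 were well above background on all 12 arrays. Of the other 2, Cd163 was well above background on 2 control, 2 TrbE14 and 3 TrbE10 arrays and Fcgr1 on 0, 3 and 4. In limma 6 were called higher in TrbE10 and 1 in TrbE14, beside 1.28% and 0.533% of all genes. Log2 changes were above 0 for 16 in TrbE10, 15 in TrbE14 and 13 between the mutants, beside 45.2%, 44.1% and 51.2% of all genes. Cx3cr1, Mertk and Sfpi1 had lower means in TrbE10 than in TrbE14. Sfpi1, the array's name for Spi1, had mean log2 signals of 4.95 on control, 5.19 on TrbE14 and 5.10 on TrbE10 arrays. The summed signal of all 16 lay between 12675 and 15515 on control arrays, between 19405 and 21155 on TrbE14 arrays and between 22544 and 26502 on TrbE10 arrays, and its 3 ranges did not overlap, like those of Ctss. Csf1r alone gave 4541 to 5505, 8757 to 9609 and 9783 to 11410 of that sum, in the same order. Among the 16, Csf1r, the receptor that macrophages need for survival, had a log2 change in TrbE10 of 1.14 (adjusted p = 0.000112), Aif1 of 0.96 (adjusted p = 0.0477) and C1qc, a complement subunit, of 0.84 (adjusted p = 0.0153). Fcgr1, an immunoglobulin receptor and 1 of the 6 called, was not well above background on the control arrays. It passed the filter on background only through the mutant arrays, and was also called with no filter (adjusted p = 0.0464). Its TrbE10 signal was higher by at least 2.2-fold within this processing, a bound defined with the processing (adjusted p = 0.015). Its log2 change lay below that bound with the authors' normalized values (0.77, adjusted p = 0.00931) and with normexp background (0.44, adjusted p = 0.0143). In TrbE14 Csf1r was higher by 0.92 (adjusted p = 0.000607). Csf1r was called with any array left out, while Fcgr1 lost its call without control replicate 4 or TrbE10 replicate 3, C1qc without control replicate 4, and Aif1 without any array but control replicate 3 and TrbE14 replicate 4, with adjusted p of up to 0.113. The part of macrophage number in the difference of Ctss was not tested, and in bulk tissue more cells of a type and more RNA per cell cannot be told apart.

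Other cell types that express cathepsins gave mixed values. The summed signal of 8 fibroblast markers ranged from 72888 to 81298 on control arrays, from 94615 to 112644 on TrbE14 arrays and from 90834 to 108287 on TrbE10 arrays, and Dcn alone gave between 68.5% and 78.2% of that sum on each array. The other 7 markers together summed to 19798 to 25576, 20593 to 31342 and 25392 to 31677, so that without Dcn both mutants overlapped control. At an unadjusted p under 0.05, 5 of the 8 were higher and 1 lower in TrbE10, and 4 higher and 1 lower in TrbE14. Of all genes, 7.8% were higher and 9% lower in TrbE10 at that threshold, and 6.52% and 7.4% in TrbE14. The same shares apply to the other cell types below. The lower marker, Thy1, a surface glycoprotein of fibroblasts named after its values were seen, had log2 changes of -0.54 (adjusted p = 0.0502) and -0.52 (adjusted p = 0.0895). All arrays of both mutants lay below control for Thy1, as in 5.63% and 5.43% of all genes. Most of the list went the other way, with changes above 0 for 7 of the 8 in TrbE10 and 6 in TrbE14 and medians of 0.43 and 0.42. Tcf21, not called, had mean log2 signals of 8.67 on control, 9.53 on TrbE14 and 9.78 on TrbE10 arrays. Dcn, a proteoglycan gene of fibroblasts, rose by 0.39 in TrbE10 (adjusted p = 0.0376) and by 0.50 in TrbE14 (adjusted p = 0.019). Of 5 mast cell markers 4 were measured, with 3 higher and 0 lower at an unadjusted p under 0.05 in TrbE10, and 2 higher and 1 lower in TrbE14. Cpa3, a mast cell protease, was well above background on 0 control, 4 TrbE14 and 3 TrbE10 arrays. Like Cma1, also on 0 control arrays, Cpa3 passed the filter on background only through the mutant arrays. Both were among the 3 mast cell markers higher in TrbE10, so the filter favoured that count. Cpa3 was called higher in TrbE10 (adjusted p = 0.00505) and in TrbE14 (adjusted p = 0.0161). Within this processing only, the folds were at least 2.05 and 1.68. With the authors' normalized values both calls were lost (log2 changes of 0.62 and 0.33, adjusted p = 0.26 and 0.584), and with normexp background the TrbE14 call was lost (0.39, adjusted p = 0.169) and the TrbE10 call kept (0.64, adjusted p = 0.0224). The Dcn call in TrbE10 was kept only without TrbE14 replicates 1 or 3 or TrbE10 replicate 2 (adjusted p otherwise up to 0.107), and in TrbE14 it was lost without control replicates 2, 3 or 4 or TrbE14 replicates 1 or 2 (up to 0.0675). The Cpa3 call in TrbE14 was lost without control replicates 3 or 4 or TrbE14 replicate 4, with adjusted p of up to 0.0582. None of 6 endothelial, 9 cardiomyocyte or 4 measured monocyte and neutrophil markers was called by limma in either mutant; at an unadjusted p under 0.05, endothelial markers were higher in 1 and 2 cases, cardiomyocyte markers lower in 2 and 1, and monocyte and neutrophil markers lower in 0 and 1, in TrbE10 and TrbE14 in that order. The 6 markers of antigen-presenting cells, the cells in which cathepsin S acts on class II molecules, had median log2 changes of 0.12 (TrbE10) and -0.63 (TrbE14), and 0 were called by limma. At an unadjusted p under 0.05, 0 of them differed in TrbE10 and 4 were lower in TrbE14. Their summed signal was 15376 to 26776 on control, 8772 to 17099 on TrbE14 and 15932 to 29264 on TrbE10 arrays. Between the mutants 5 of the 6 were higher in TrbE10 at an unadjusted p under 0.05, beside 2.92% of all genes, and 0 were called. The part of these cells in the difference of Ctss was not tested.

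**Figure D3:**
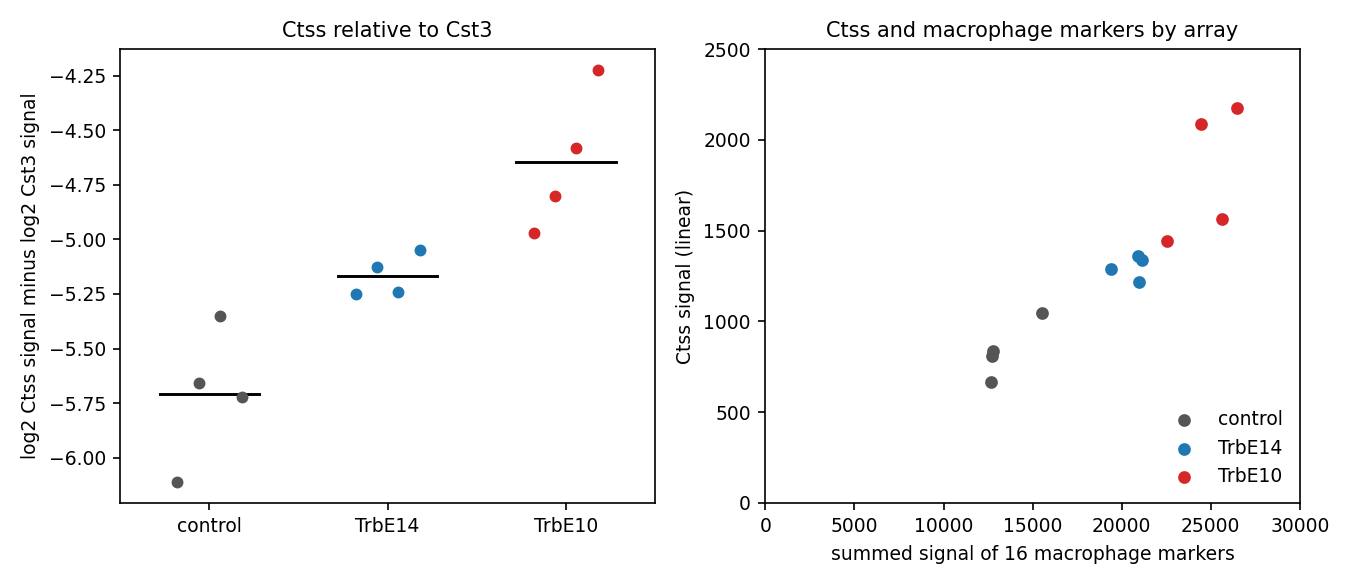
Left, log2 Ctss signal minus log2 Cst3 signal on each array (vertical axis) by group, with group means as bars at -5.71, -5.17 and -4.65. Right, linear normalized Ctss signal of each array against the summed linear signal of 16 macrophage markers, coloured by group; the groups lie apart on both axes, with no overlap on either.

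The 5 genes whose profiles over the 12 arrays were nearest to that of Ctss were named by the root mean square difference of log2 signals, each centred on its own mean. They were Gp49a (0.158), Laptm5 (0.187), P2ry6 (0.188), C1qc (0.189) and Mpeg1 (0.192), where the root mean square of Ctss about its own mean was 0.498. In TrbE10 against control Gp49a was higher by 0.86 (adjusted p = 0.00892) and P2ry6, a nucleotide receptor, by 0.82 (adjusted p = 0.00888), both called. Laptm5, a lysosomal membrane protein of blood cells, differed by 0.76 (adjusted p = 0.0502, but called under 6 of 9 alternatives) and Mpeg1, a pore-forming protein of macrophages, by 0.84 (adjusted p = 0.0606). The nearness of these profiles holds the group differences themselves, since the arrays are those of the comparison.

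The remaining lysosomal genes were taken as 6 lists holding 111 genes, of which 84 were measured. In TrbE10 2 were called higher and 0 lower, where 1.28% and 0.649% of all genes were, and 14 were higher and 4 lower at an unadjusted p under 0.05, beside 7.8% and 9% of all genes. The median log2 change of the 84 was 0.06. In TrbE14 1 was called higher and 0 lower, beside 0.533% and 0.128% of all genes, with a median of 0.04. At an unadjusted p under 0.05, 8 were higher and 4 lower there, beside 6.52% and 7.4%. Between the mutants 0 were called by limma. At an unadjusted p under 0.05, 3 were higher and 1 lower in TrbE10 than in TrbE14, beside 2.92% and 3.04%. The calls came from 2 genes. Cd68, a lysosomal membrane glycoprotein used as a macrophage marker, had a log2 signal of 9.95 to 10.28 on control, 10.19 to 10.47 on TrbE14 and 10.48 to 10.89 on TrbE10 arrays. Cd68 rose by 0.60 in TrbE10 (adjusted p = 0.0239), but lost its call without any of control replicates 1, 2 or 4 or TrbE10 replicates 1 or 3, with adjusted p of up to 0.0771. Fetub, a plasma protein of the cystatin superfamily made mainly by the liver, whose product inhibits metalloproteases rather than cathepsins, had a log2 signal of 6.06 to 6.93 on control, 7.40 to 7.75 on TrbE14 and 7.93 to 8.49 on TrbE10 arrays. Fetub rose by 1.71 in TrbE10 (adjusted p = 0.00228) and by 1.15 in TrbE14 (adjusted p = 0.0333), and the TrbE14 call was lost without control replicates 1, 2 or 3 or any of the 4 TrbE14 arrays, with adjusted p of up to 0.0991.

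By role, 4 of 15 other cathepsins passed the filter and 0 were called by limma in any comparison, with 0 at an unadjusted p under 0.05. The 11 others include Ctse, Ctsg and the placental cathepsins, and Ctsg, a granule protease of neutrophils, was above background on 2 arrays. Of 6 other lysosomal peptidases all were measured and 0 were called, with medians of 0.13 in TrbE10 and 0.03 in TrbE14 (-0.01 with Napsa, not well above background on control or TrbE10 arrays, set to no difference); 1 was higher at an unadjusted p under 0.05 in TrbE10 and 0 in TrbE14. Of 17 other cystatins 5 were measured, and Fetub was the call. At an unadjusted p under 0.05, 4 were higher and 0 lower in TrbE10, beside 7.8% and 9% of all genes. In TrbE14 2 were higher and 1 lower, beside 6.52% and 7.4%. Mean log2 signals on control, TrbE14 and TrbE10 arrays were 8.72, 9.73 and 10.51 for Ahsg, which was not called. In the same order they were 10.51, 10.57 and 10.69 for Cstb and 10.25, 9.94 and 10.21 for Cst6. Stfa2, 1 of the 4 higher in TrbE10, was well above background on 0 control arrays. It passed the filter only through the mutant arrays, so the filter favoured its place in that count. Of 30 genes of the lysosomal membrane and its proton pump 29 were measured, with medians of -0.03 in both mutants and Cd68 as the call. Of 33 other hydrolases and cofactors 32 were measured and 0 were called by limma; at an unadjusted p under 0.05, 4 were higher and 2 lower in TrbE10 and 2 higher and 2 lower in TrbE14. Of 10 genes for sorting to the lysosome and for transcription of its genes, 8 were measured and 0 were called, with 1 higher and 1 lower at an unadjusted p under 0.05 in TrbE10; Tfeb and Tfe3 had no probe under those names.

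**Figure D4:**
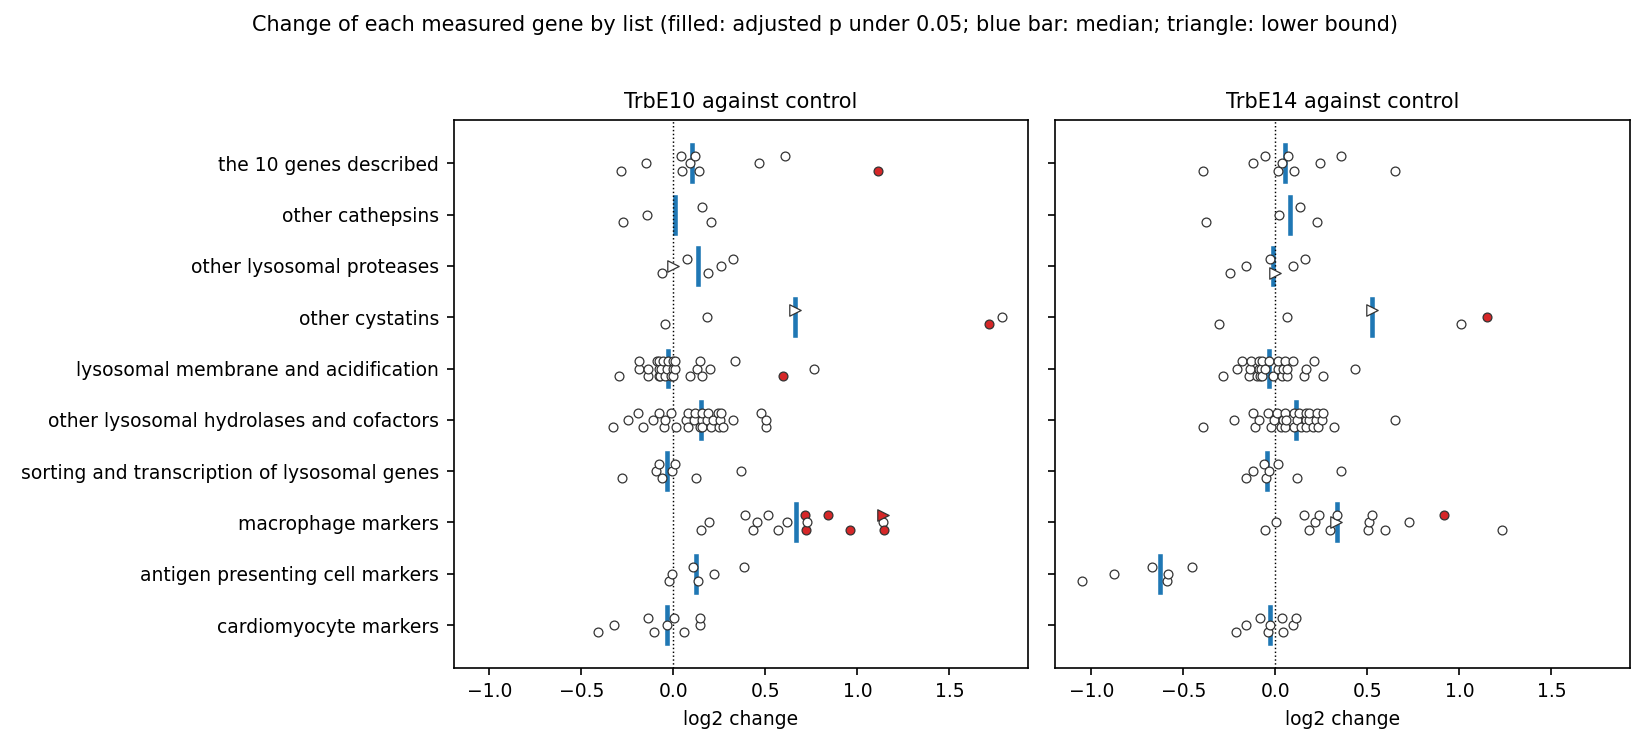
Log2 change (horizontal axis) of every measured gene of each list in TrbE10 against control and TrbE14 against control; filled points had an adjusted p under 0.05 and the blue bar is the median of the list. Triangles are genes not well above background on the control arrays (Fcgr1, Stfa2 and Napsa), drawn at their lower bound or, for Napsa, which has none, at 0. The lysosomal lists centre near 0, except other cystatins (5 genes, medians 0.66 and 0.52, which are the bounds of Stfa2 itself). The macrophage markers centre at 0.66 and 0.33.

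Averaged over the 10 genes, each TrbE10 array lay above the control mean, by 0.145 to 0.336 on the log2 scale, and TrbE14 arrays lay between -0.0129 and 0.156 of it, while the control arrays ranged from -0.0823 to 0.0807. The array with the highest average was TrbE10 replicate 3, with 9 of the 10 genes above their control mean, and TrbE10 replicate 1 had 6. These averages carry the Ctss difference, which is the largest of the 10 in both mutants.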

How the data were processed

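The authors hybridized RNA of 12 mice to single-colour Agilent 8x60K arrays and deposited, per the file headers, the scanner output of Agilent Feature Extraction 10.5, whose processed signal is a linear intensity with background subtracted inside each array and no scaling across arrays. The authors also deposited a table of 22114 probes as log2 values, quantile normalized and filtered on background, which was used as an alternative (r of at least 0.996 per array with the values used here).

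The log2 of these signals was quantile normalized here (R 4.3.3, limma 3.58.1, data.table version 1.17.8). Control spots were removed, 93 to 131 outlier spots per array were set to missing (0 on the 10 genes), with the mean taken over repeat spots. Kept probes were those well above background in 3 or more arrays of 1 group (24593 probes, 18021 gene names). A gene is represented by its brightest kept probe. For a gene well above background on 0 arrays of a group, the fold is given as a bound, the mean of the brighter group against the mean, per array of the dim group, of its own log2 value or the lowest value among probes well above background, whichever is higher. Such a bound holds for these quantile normalized signals only, and the authors' values or normexp gave smaller changes for Fcgr1 and Cpa3. limma fitted 1 mean per group over the 12 arrays (9 residual and 2.19 prior degrees of freedom), with Benjamini-Hochberg adjustment within each comparison; every adjusted p comes from limma unless another test is named. On data simulated from these arrays for TrbE10 against control (24593 probes), limma made 166 calls with 4 false, recovering 69% of probes changed by 1 log2 unit and 93% of those changed by 2. Exact permutation tests used the 70 label orders of 8 arrays. Figures and motif searches used Python 3.11.15 and matplotlib 3.10.9.

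The 10 genes, the lists and the tests were chosen with earlier results of these data known. Named are the 10 genes, up to 4 called genes of every other list, the 5 nearest profiles to each called gene and Nkx2-5; other names were chosen after their values were seen. Alternatives were 75th percentile scaling, the authors' values, normexp (offset 50), no filter or a filter requiring 9 of 12 arrays, fits of 2 groups, the replicate number as a block, any probe of a gene, sex as a covariate, SAM at a false discovery rate of 5%, and each array left out. The number of arrays limits the precision.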

Additional observations from a re-analysis of the deposited data

Results flagged for a closer look

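Within a group of 4 arrays, 2 of 33 sets of values had a single array set apart by a share of the group's range above Dixon's 95% critical value, a limit that chance passes in about 1 of 20 groups. Ctsd on TrbE10 replicate 3 had a log2 signal of 15.51, with the other 3 arrays between 15.19 and 15.23, and the gap was 0.858 of the range. Ctsh on TrbE10 replicate 2 had a log2 signal of 12.58, with the others between 11.94 and 12.02, and the gap was 0.884 of the range. The control arrays of Ctsh lay between 12.37 and 12.48.

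Ctss relative to Cst3 differed between the mutants by 0.521 on the log2 scale, TrbE10 being higher on 4 of 4 arrays (exact permutation p = 0.0286, adjusted over 3 comparisons). The slide and the genotype cannot be told apart in that difference. Ctss alone differed by 0.46 between the mutants, uncalled by limma (adjusted p = 0.742), so the flagged value largely repeats the Ctss difference.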

How the results depend on the processing

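The rise of Ctss in TrbE10 hearts was called under each of the 9 alternatives that gave it a value (log2 change 1.03 to 1.16) and with each of the 12 arrays left out (1.00 to 1.22). In TrbE14 hearts Ctss was called by SAM, making the count of called genes 1, and by no other alternative (0.56 to 0.74, adjusted p 0.0795 to 0.22). With sex as a covariate, 2 of the 10 were called in TrbE10 (Ctss and Ctsz). Leaving out an array gave 1 to 3 called genes in TrbE10, 3 without TrbE10 replicate 2, and 0 in the other comparisons. The median change of the 10 with arrays left out ranged from 0.0849 to 0.123 (TrbE10), 0.0191 to 0.0868 (TrbE14) and 0.0615 to 0.123 (between the mutants). Scaling to the 75th percentile moved the median to 0.0194 in TrbE10 and to -0.0368 in TrbE14. Over all kept probes the median log2 changes under that scaling were -0.0778 and -0.0584. With quantile normalization the medians over all genes were -0.0249 and -0.0308. It turned the uncalled changes of Ctsa (-0.000188), Ctsb (-0.0452) and Cst3 (-0.0185) in TrbE10 and of Ctsa (-0.0914), Ctsb (-0.0508) and Lgmn (-0.0227) in TrbE14. Between the mutants Ctsb turned with normexp (-0.0148) and with sex as a covariate (-0.00342). With arrays left out, uncalled changes spanned 0 for Ctsb (-0.00552 to 0.0937 in TrbE10, -0.0128 to 0.0813 in TrbE14, -0.0248 to 0.0592 between the mutants), Ctsa (-0.00292 to 0.0397 in TrbE14), Cst3 (-0.0297 to 0.111 in TrbE10, -0.134 to 0.00657 between the mutants), and, between the mutants, Ctsd (-0.0984 to 0.0438), Ctsh (-0.0364 to 0.176) and Ctsk (-0.0865 to 0.446). No called change turned sign (0 of those recomputed).

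With 75th percentile scaling Ctss minus Cst3 differed between the mutants by 0.525 (adjusted p = 0.0571). With arrays left out the differences ranged from 0.924 to 1.18, 0.41 to 0.664 and 0.38 to 0.63. By the exact permutation test each of the 3 was called in 8 of these fits (adjusted p = 0.0286). Each call was lost whenever a TrbE14 array was left out (adjusted p = 0.0571). TrbE10 against control uses no TrbE14 array, and its difference stayed at 1.06 in those fits. Its adjusted p rose there only through the adjustment over the 3 comparisons. Of the other lysosomal genes, 1 in TrbE10 and 0 in TrbE14 were called with no filter or with 2 groups fitted, and 4 and 0 with sex as a covariate; with arrays left out the counts were 1 to 4 and 0 to 1. The cause of these changes was not tested.

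The replicate numbers were not taken to pair the samples: same-numbered arrays correlated between -0.188 and 0.079 for TrbE10 and control, between -0.242 and -0.0345 for TrbE14 and control, and between -0.00829 and 0.476 for the mutants, where 3 of 4 correlated best with their own number, a hint from the data and not from the design. With the replicate number as a block, Ctss kept its change in TrbE10 (1.11, adjusted p = 0.0171), and 1, 0 and 0 of the 10 were called in the 3 comparisons, with medians of 0.10, 0.05 and 0.09. Among the other genes named, the calls of Csf1r, Fetub, Gp49a and P2ry6 in TrbE10 held under all their alternatives and all 12 fits without an array. With no filter or with 2 groups fitted, adjusted p rose to 0.0519 and 0.0601 for Cd68, 0.118 and 0.0864 for Aif1 and 0.0512 and 0.0893 for Dcn in TrbE10, and to 0.085 and 0.059 for Fetub in TrbE14. The Dcn calls were also lost with 75th percentile scaling (0.101 and 0.0588) and with the replicate block (0.0764 and 0.0534), and those of Aif1 (0.0903) with the block and of Aif1 (0.0574) and, in TrbE14, Fetub (0.0537) with sex as a covariate.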
